A study of Mus musculus with 96 samples.

Results

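Silent preoptic neurons that responded to temperature were set against silent preoptic neurons that did not. The labels class 10 cells as silent and temperature-sensitive and 18 as silent and temperature-insensitive, 28 of the 96 mouse cells in the series. These classes come from the temperature response recorded in each cell and not from its RNA. Every cell came from a C57BL/6N mouse of 2 to 3 months, with no transgene, treatment or other allele given in the labels. Each neuron was recorded in the whole-cell patch-clamp configuration in a fresh slice of the preoptic area of the hypothalamus, taken up with a glass pipette and sequenced by Smart-seq2 (Patch-seq), so a library holds 1 picked cell. Only 2 further classes are used below, for comparison: 21 warm-sensitive cells and 24 insensitive cells that are not labelled silent. No label names the animal, slice or day of a cell. Each group was therefore treated as a single sample, and all differences are descriptions of these cells without a test.

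The preoptic area senses the temperature of the brain and receives signals from thermoreceptors of the skin, and it drives heat loss, heat production and fever. Classical recordings divide its neurons by how firing follows temperature into warm-sensitive, cold-sensitive and insensitive cells. Silent is a word commonly used for neurons that fire no spontaneous action potentials at rest, although the labels do not define it. Preoptic neurons release GABA or glutamate, often together with neuropeptides, and candidate molecular thermosensors include channels of the TRP family and potassium leak channels.

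Counts were scaled to CPM, counts per 1000000 of the cell's total, with the ribosomal RNA precursor Rn45s in the total. A gene was called detected in a cell at 10 CPM or more. Shares of cells are given with exact Clopper-Pearson 95% intervals and summed CPM with exact Poisson 95% intervals. Both cover counting error only, leave out variation between animals, and treat reads of amplified cDNA as independent molecules, which they are not. A difference is the mean over sensitive cells minus the mean over insensitive cells of log2(CPM + 1). On this scale a value of 2 is 4 times, and the pseudocount shrinks differences of low genes. The measure also depends on how many cells hold a gene. It can therefore be larger than the difference of summed counts (Apbb1, -3.90 and -0.16) or smaller (Plcg1, 2.77 and 6.12).

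Total counts ran from 1009247 to 1640135 in the sensitive cells and from 465167 to 2434092 in the insensitive cells, and Rn45s took 37.4 to 78.1% and 29.2 to 91.6% of them. The sensitive cells had 1094 to 2529 genes at 10 CPM, with a median of 1356.5. The insensitive cells spread wider, from 554 to 4628 with a median of 2096; 7 of them lay above the range of the sensitive cells, 6 below it and 5 within it. When every cell was thinned to 200000 counts outside Rn45s, which left out 4 shallow insensitive cells and no sensitive one, the median number of genes with counts was 2558 and 3390. The 4 cells left out had the fewest genes at 10 CPM of all silent cells, 554 to 867, which raises the insensitive median. Differences are therefore also given without the 7 gene-rich insensitive cells, a choice made after seeing the data. The 6 insensitive cells below the range stay in, so this choice does not match the groups in genes per cell.

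**Figure D1:**
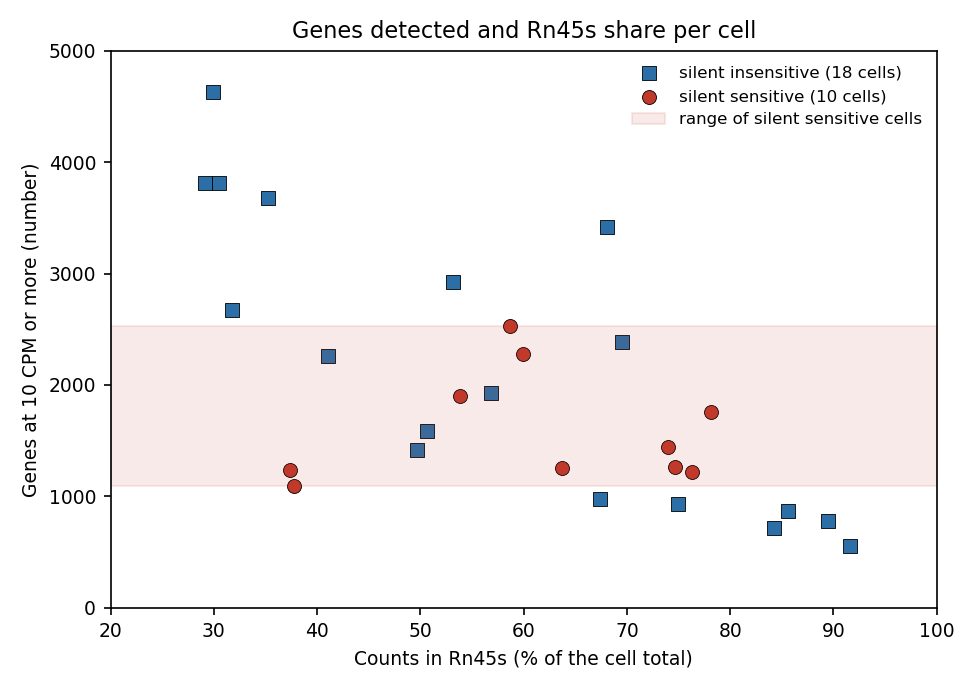
Number of genes at 10 CPM or more in each silent cell (y axis) against the percentage of its counts in Rn45s (x axis); red circles are the 10 sensitive cells, blue squares the 18 insensitive cells, and the shaded band spans the sensitive cells. The sensitive cells lie between 1094 and 2529 genes, and 7 insensitive cells lie above that band and 6 below it.

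The neuronal identity of the cells was checked on 16 pan-neuronal genes, of which 7 to 13 were detected per sensitive cell and 5 to 16 per insensitive cell. Syt1, the calcium sensor of vesicle release, was at 10 CPM in 10 of 10 sensitive and 16 of 18 insensitive cells. Glial RNA was present in cells of both groups. The 12 microglia markers summed to 12.2 to 26787 CPM in sensitive cells and 6.98 to 23589 CPM in insensitive cells, with the highest sums in sensitive cell 6 and insensitive cell 1. The 12 astrocyte markers summed to 9.91 to 5062 CPM and 4.57 to 4951 CPM. The 12 oligodendrocyte markers summed to 0.985 to 7948 CPM and 7.39 to 13601 CPM, while Mog, a defining oligodendrocyte gene, reached 10 CPM in no silent cell. Of the 11 endothelial and mural markers none reached 10 CPM in a sensitive cell, and Pecam1 and Itm2a each did in 1 insensitive cell. Of the 7 oligodendrocyte precursor markers Pdgfra and Gpr17 had no count in any silent cell, while Olig1 was detected in 1 sensitive and 4 insensitive cells and each of the other 4 in at most 1 cell of a group. The part of glial RNA in the differences below was not tested, except where a value without a cell is given.

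Most genes were lower in the sensitive cells on this scale. Over the 3459 eligible genes, meaning genes that reached 10 CPM in no fewer than 3 cells, and no less than 25%, of either group, the median difference was -0.65. Of these, 1062 genes (30.7%) were higher and 2397 (69.3%) lower. A difference of 2 or more was reached by 49 genes in the higher direction (1.42%) and by 329 genes in the lower direction (9.51%). This balance moved with the gene-rich insensitive cells: without those 7 cells, with eligibility taken over the remaining cells, the median difference was 0.51, and 308 genes were higher and 96 lower by 2. Over the same 3459 genes as before, the median without those cells was 0.29, with 309 genes higher and 91 lower by 2. List medians given below without cells or with other library sizes are over the genes eligible in that setting, unless the same genes are stated. With differences taken relative to the median gene, 194 genes were higher and 82 lower by 2. Directions of single genes and gene groups are therefore read beside the median gene. Counts of higher and lower list members below stand beside the 30.7% and 69.3% over all eligible genes. A gene that is eligible through 1 group alone always has the higher share of cells in that group. The direction of such a gene is partly set by the filter, and so are the list counts and medians it enters. Of the 24 gene lists with at least 3 eligible genes, 17 had a median below 0; without the 7 cells it was 5, and 12 of the 24 medians changed sign. With only the 5 insensitive cells inside the sensitive gene range, 14 medians were below 0 and 7 changed sign. With TMM library sizes 3 of the 24 changed sign, and relative to the median gene 7.

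The transmitter genes were the first property examined, because preoptic thermosensitive neurons occur in both GABAergic and glutamatergic populations. Any of the GABA genes Gad1, Gad2 and Slc32a1 was detected in 6 of 10 sensitive cells (60%, 95% interval 26.2 to 87.8%) and 15 of 18 insensitive cells (83.3%, 58.6 to 96.4%). A vesicular glutamate transporter gene was detected in 2 sensitive and 2 insensitive cells. By both criteria 5 sensitive cells carried GABA genes alone, 1 a glutamate transporter alone, 1 both and 3 neither, whereas the 18 insensitive cells divided into 13, 0, 2 and 3. The intervals of the 2 groups overlap for each of these classes.

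Gad1, which encodes the larger form of glutamate decarboxylase, the enzyme that makes GABA, was the transmitter gene that differed most. Sensitive cells 3, 4, 7 and 9 held 197, 170, 21 and 8.87 CPM of Gad1, and no other sensitive cell passed 1.22 CPM. The insensitive cells ran from 0 to 963 CPM with a median of 92.1, and 7 of them, at 264 to 963 CPM, lay above every sensitive cell. The difference was -2.89, and -3.34 without the gene-rich insensitive cells. After thinning, where detection took 2 of the 200000 counts, Gad1 was detected in 4 of 10 sensitive and 10 of 14 insensitive cells. Gad2, which encodes the smaller, membrane-anchored form of the enzyme, did not follow Gad1. It was detected in 6 of 10 and 12 of 18 cells with a difference of -0.41, and its highest values were alike, 1817 CPM in sensitive cell 9 and 1841 CPM in insensitive cell 17. As a result 3 sensitive cells held Gad1 and Gad2 together, 3 Gad2 without Gad1 and none Gad1 without Gad2, against 9, 3 and 3 insensitive cells. Abat, the GABA transaminase that breaks GABA down, was detected in 1 of 10 and 9 of 18 cells, with a difference of -2.59 that shrank to -0.87 without the gene-rich cells. Slc32a1, the vesicular GABA transporter, was sparse, at 1 of 10 and 3 of 18 cells. The median over the 4 eligible GABAergic genes was -1.50. With eligibility taken anew it was -0.21 with the deposited signal, -0.46 with Rn45s left out of the total and -0.43 without the gene-rich cells. The values with the deposited signal and with Rn45s left out are those of Gad2 itself, so the genes entering were not the same 4. Gad1 differed by -2.88 and -3.29 in those settings. Over the same genes, with only the insensitive cells inside the sensitive gene range, the median was -1.90.

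Slc17a6, the vesicular glutamate transporter VGLUT2, was detected in sensitive cells 1 and 8, at 191 and 387 CPM, and in insensitive cells 1 and 16, at 83.7 and 31.9 CPM. Its difference of 1.01 became 0.27 when sensitive cell 8 was left out, so it rests on few cells.

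**Figure D2:**
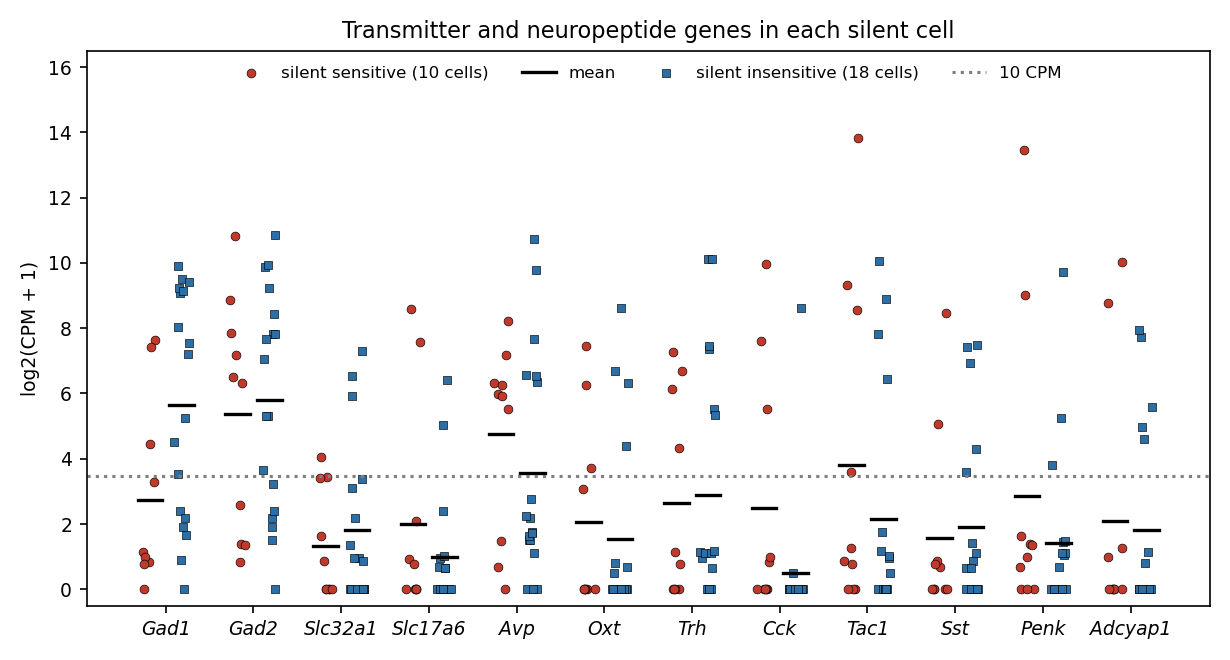
Expression of 4 transmitter genes and 8 neuropeptide genes in each silent cell, as log2(CPM + 1); red circles are sensitive cells, blue squares insensitive cells, black bars group means and the dotted line 10 CPM. Gad1 reaches 264 CPM or more in 7 insensitive cells and at most 197 CPM in a sensitive cell, whereas Gad2 spans a like range in both groups.

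Neuropeptide genes were carried by single cells at very different levels. Avp, which encodes vasopressin, was detected in 7 of 10 sensitive cells (70%, 95% interval 34.8 to 93.3%) and 6 of 18 insensitive cells (33.3%, 13.3 to 59%), with a difference of 1.20. The 7 sensitive cells held 44.8 to 299 CPM, while the highest insensitive cell held 1712 CPM, so that summed over cells Avp was lower in sensitive cells, 73.4 against 148 CPM, or 77 CPM without that insensitive cell. Tac1, the precursor of substance P, was detected in 4 of 10 and 4 of 18 cells with a difference of 1.68, and sensitive cell 8 held 14603 CPM against at most 1062 CPM in an insensitive cell. Without sensitive cell 8 the Tac1 difference was 0.56. The same sensitive cell held Slc17a6 without GABA genes and 1038 CPM of Adcyap1, the gene of the peptide PACAP. The other sensitive cell with Slc17a6, cell 1, held 435 CPM of Adcyap1. Sensitive cell 3, which held both Gad genes, had 11252 CPM of Penk, the precursor of enkephalins, where the highest insensitive cell had 848 CPM. Cck, the gene of cholecystokinin, was detected in 3 of 10 and 1 of 18 cells with a difference of 1.99, from sensitive cells 2, 3 and 10 at 194, 44.7 and 1004 CPM; it was 1.16 without cell 10. Trh, Sst and Oxt were detected in 4, 2 and 3 sensitive cells and in 6, 5 and 4 insensitive cells. Gal, Vip and Pdyn reached 10 CPM in no silent cell, which allows a share of up to 30.8% of sensitive and 18.5% of insensitive cells. Of the 31 neuropeptide genes listed, 7 were eligible, 5 of them higher and 2 lower, with a median difference of 0.50 beside -0.65 over all eligible genes, and of 1.62 without insensitive cell 8. Cck, Tac1 and Oxt were eligible only through the sensitive cells, and Sst and Adcyap1 only through the insensitive cells. Without the filter on low genes the list's median was -0.11, beside -0.21 over all genes with counts. The peptide-processing list had 5 of 10 eligible genes higher and a median of 0.02: Vgf, a neuropeptide precursor of secretory granules, differed by 1.68, and Scg5, a chaperone of the convertase PC2, by -1.69. That median was -0.33 without sensitive cell 8 and 0.42 without sensitive cell 6.

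The 14 genes highest relative to insensitive cells, by the ranking given with the processing, differed by 2.38 to 2.89. They were chosen for these values, which are therefore a description. Phactr1, a regulator of actin and protein phosphatase 1 (chromosome 13, 42680623 to 43138526 of mm10), came first. The 10 sensitive cells, in order of cell number, held 37.8, 0, 29.5, 90.4, 12.7, 0, 29.8, 430, 0 and 96.8 CPM. Of the insensitive cells 13 had no count, and the highest held 72.1 CPM, so 3 sensitive cells lay above all insensitive cells and 3 had no count. The share was 70% (34.8 to 93.3%) against 16.7% (3.58 to 41.4%). The pooled counts gave 66.5 CPM (62.1 to 71.1) for sensitive and 6.34 CPM (5.33 to 7.48) for insensitive cells.

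Several of the other higher genes act in signalling. Camk1g, a calmodulin-dependent kinase, was detected in 5 of 10 and 2 of 18 cells, at 583, 177, 74.3, 120 and 142 CPM in sensitive cells 1, 2, 3, 4 and 7, with a difference of 2.47. The insensitive cells overlap these values through cell 12, at 290 CPM. Akap11, which anchors protein kinase A, was detected in 7 of 10 and 6 of 18 cells with a difference of 2.82. Plcg1, a phospholipase that produces inositol trisphosphate, was carried by sensitive cells 3, 6 and 8 at 956, 213 and 415 CPM, and the highest insensitive cell held 23.4 CPM. Exons of Plcg1 overlap those of Zhx3. Rabgap1, which switches off Rab GTPases, was detected in 5 of 10 and 1 of 18 cells with a difference of 2.66. Its highest sensitive values were 1015 CPM in cell 1 and 330 CPM in cell 6, against 196 CPM in insensitive cell 18, and its exons overlap those of Strbp and Gpr21. Anxa6, a calcium-dependent membrane-binding annexin, was detected in 4 of 10 and 2 of 18 cells with a difference of 2.45.

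Tppp3, which promotes tubulin polymerization, was the most widely detected of the 14, in 9 of 10 sensitive (90%, 55.5 to 99.7%) and 9 of 18 insensitive cells (50%, 26 to 74%). Its values ran from 1.83 to 1050 CPM in sensitive and from 0 to 534 CPM in insensitive cells, medians 187 and 12 CPM, so the ranges overlap while 9 insensitive cells lie below all but the lowest sensitive cell. The difference was 2.54. Ift27, a component of the transport machinery of cilia, was detected in 5 of 10 and 3 of 18 cells with a difference of 2.48.

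Tcf7l2, a transcription factor of the Wnt pathway (chromosome 19, 55741820 to 55933654), was detected in 6 of 10 and 4 of 18 cells. Sensitive cells 2 to 7 held 289, 83.2, 64.8, 93.1, 67.6 and 49.5 CPM and the other 4 at most 0.985 CPM, against a highest insensitive value of 219 CPM. Its difference was 2.51, and 3.28 without the gene-rich insensitive cells. Id2, an inhibitor of helix-loop-helix transcription factors, differed by 2.44, at 6 of 10 and 5 of 18 cells. The highest Id2 values, 1616 CPM in sensitive cell 6 and 1532 CPM in insensitive cell 1, were in the cells with the most microglia marker RNA; without sensitive cell 6 the difference was 1.83. The remaining higher genes were Ube2e3, a ubiquitin-conjugating enzyme (2.84), Prim2, a DNA primase subunit (2.67), Echs1, an enzyme of mitochondrial fatty acid oxidation whose exons overlap those of Paox (2.53), and Dnajb9, a chaperone of the endoplasmic reticulum (2.38). Prim2 was at 0 counts in 6 sensitive and 16 insensitive cells and was carried by sensitive cells 6 to 9 at 65.8 to 456 CPM.

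**Figure D3:**
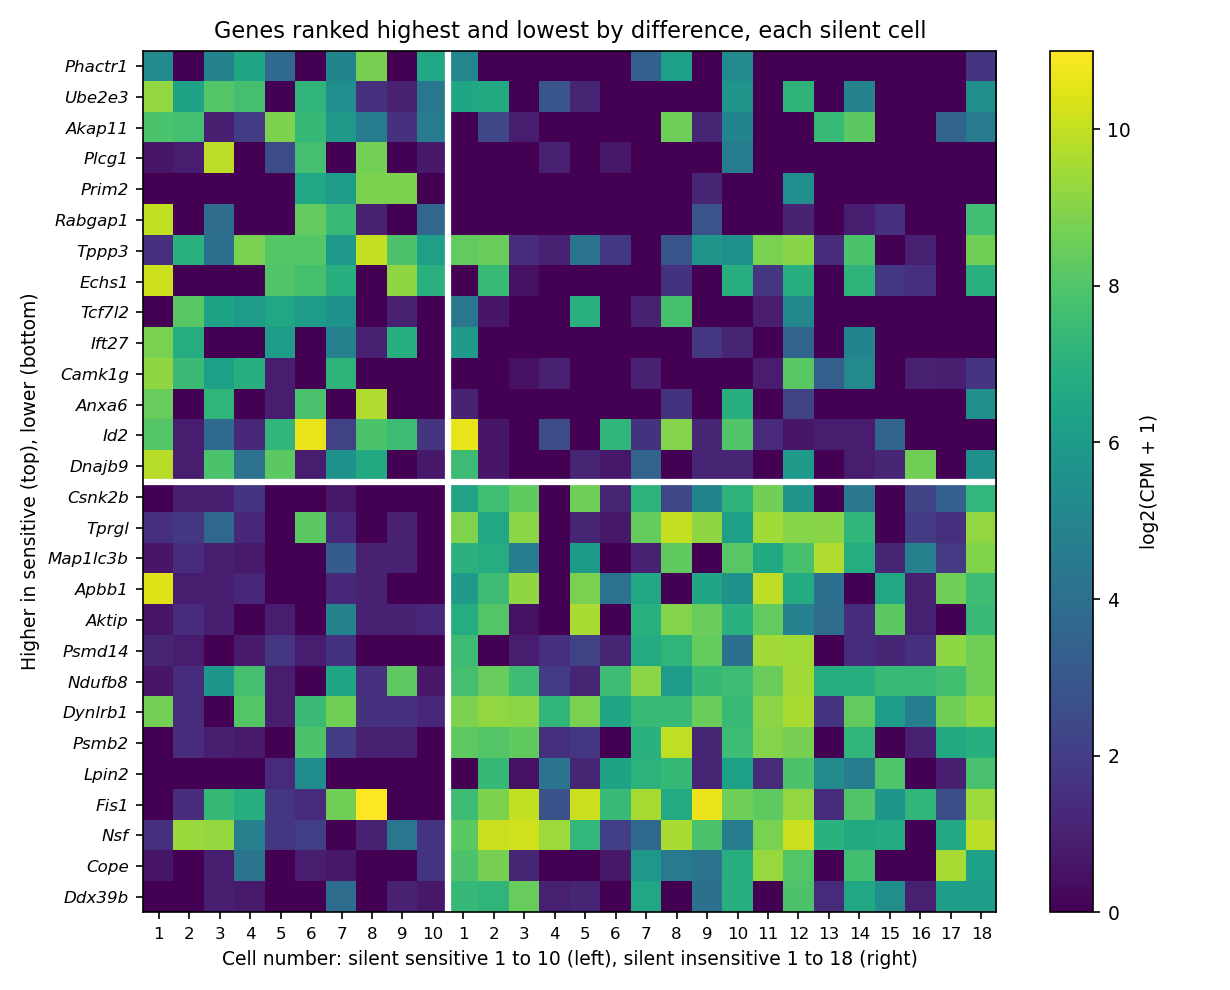
Heat map of log2(CPM + 1) for the 14 highest-ranked and 14 lowest-ranked genes (rows) in the 10 sensitive cells (left of the white line) and 18 insensitive cells (right). Higher-ranked genes are carried by 3 to 9 of the 10 sensitive cells, and lower-ranked genes are near 0 in most sensitive cells; Csnk2b, Map1lc3b and Psmd14 reach 10 CPM in none.

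The 14 genes lowest relative to insensitive cells differed by -4.32 to -3.55. For each of them at least 1 insensitive cell was at 2.29 CPM or less, so the groups overlap at the lower end. Csnk2b, the regulatory subunit of casein kinase 2 (chromosome 17, 35116196 to 35122053), was first. No sensitive cell passed 2.14 CPM and 6 had no count, whereas 11 of 18 insensitive cells were at 10 CPM or more, up to 401 CPM. The sensitive share of 0 of 10 allows up to 30.8%, and the insensitive share was 61.1% (35.7 to 82.7%). Summed over cells this was 0.468 CPM (0.172 to 1.02) against 114 CPM (109 to 118). Exons of Csnk2b overlap those of Gpank1. The catalytic subunit genes were too sparse to compare, with Csnk2a1 detected in 2 of 10 and 2 of 18 cells and Csnk2a2 in 0 and 1.

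Genes of protein and organelle turnover were among the 14. Map1lc3b encodes LC3B, the ubiquitin-like protein attached to autophagosome membranes (chromosome 8, 121590361 to 121598760). Its sensitive values were 0 to 8.14 CPM with a median of 0.80, and 12 of 18 insensitive cells held 23.8 to 828 CPM. The difference was -4.10, and -2.90 without the gene-rich insensitive cells. Exons of Map1lc3b overlap those of Zcchc14. Among its relatives Map1lc3a differed by -0.45, Gabarap by -0.90, Gabarapl1 by -0.29 and Gabarapl2 by -0.17. Psmd14, the deubiquitinase of the proteasome lid, was at no more than 2.39 CPM in any sensitive cell and detected in 9 of 18 insensitive cells, up to 716 CPM, with a difference of -3.77. Psmb2, a catalytic-core subunit of the proteasome, was at 245 CPM in sensitive cell 6 and at most 2.71 CPM in the others, against 11 of 18 insensitive cells detected, with a difference of -3.68.

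Several of the 14 are known for roles in transport or membrane fusion, a sorting made after the ranking. Nsf, the ATPase that disassembles SNARE complexes after vesicle fusion, was detected in 4 of 10 and 16 of 18 cells. Sensitive cells 2 and 3 held 642 and 615 CPM, cells 4 and 9 held 27.1 and 18.7 CPM, and the other 6 at most 3.14 CPM, against an insensitive median of 194 CPM. Its difference was -3.60, and -5.04 within the letter groups described below. Aktip, an adaptor between vesicles and dynein whose exons overlap those of Rbl2, was at 29.2 CPM in sensitive cell 7 and at most 1.63 CPM elsewhere, a difference of -3.88. Dynlrb1, a light chain of dynein, was detected in 4 of 10 and 17 of 18 cells (-3.70). Cope, a coatomer subunit of the Golgi, was detected in 1 of 10 and 11 of 18 cells (-3.59). Tprgl, a protein of synaptic vesicles, was at 302 CPM in sensitive cell 6 and at most 11.6 CPM in the others, and at 10 CPM in 12 of 18 insensitive cells (-4.11).

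Mitochondrial genes were represented by Ndufb8, a subunit of complex I, and Fis1, a receptor of mitochondrial fission. Ndufb8 was at 56.4, 214, 88.8 and 308 CPM in sensitive cells 3, 4, 7 and 9 and at most 1.98 CPM in the others, while 16 of 18 insensitive cells held 66.9 CPM or more. The difference was -3.72. Fis1 differed by -3.61, although the highest value of all silent cells, 2066 CPM, was in sensitive cell 8. Apbb1, an adaptor that binds the amyloid precursor protein, shows what a mean of log values can hide. It was at 1421 CPM in sensitive cell 1 and at most 1.42 CPM in the other 9, so that its difference was -3.90 while its summed CPM was 182 (175 to 190) against 204 (198 to 210). Lpin2, a phosphatidate phosphatase (-3.62), and Ddx39b, an RNA helicase of splicing and export (-3.55), were each detected in 1 of 10 and 11 of 18 cells. For Lpin2, Psmb2 and Tprgl the highest sensitive cell was cell 6, which also had the highest microglia marker sum; without it these 3 genes differed by -4.14, -4.40 and -4.82.

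The insensitive cells below, within and above the gene range of the sensitive cells were then separated, because the number of genes per cell differs between the groups. Without the 7 gene-rich insensitive cells the 14 higher genes differed by 2.63 to 4.27 and the 14 lower ones by -3.75 to -1.83. With only the 5 insensitive cells inside the range, the differences were 1.6 to 4.27 and -6.94 to -1.92. The titles of the cells carry a letter whose meaning the labels do not give; 6 letters hold cells of both groups, with 1 to 3 sensitive and 1 to 5 insensitive cells each, and 1 letter holds 2 insensitive cells only. Within letters the differences were 2.31 to 4.36 and -5.04 to -2.74. The genes were chosen for keeping their direction when 1 cell is left out, so these ranges do not show stability.

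Calmodulin-dependent and cyclic AMP-dependent kinases are described together, since both carry second messenger signals, calcium and cyclic AMP. Of 17 eligible genes of the calmodulin list, 6 were higher, 1 of them by 2, and 4 were lower by 2, with a median of -0.72. That median was -0.44 without sensitive cell 8, 0.27 with DESeq2 size factors and 0.90 without the gene-rich cells. Over the same genes, with only the insensitive cells inside the sensitive gene range, it was -0.53. Pnck, a calmodulin kinase of neurons, was at 0.707 to 6.26 CPM in every sensitive cell and at up to 900 CPM in the insensitive cells, 9 of which reached 10 CPM. Its difference was -3.16, and -2.45 without the gene-rich cells; after thinning it was detected in 4 of 10 and 11 of 14 cells. Camk2a, the kinase of synaptic plasticity, was detected in 5 of 10 and 15 of 18 cells (-2.50), and Camk1 in 1 of 10 and 9 of 18 (-2.34). Camk1 differed by only -0.42 without the gene-rich cells. Pvalb, the calcium buffer parvalbumin, was detected in 3 of 10 and 1 of 18 cells (1.40), and Calm3, a calmodulin gene, in 10 of 10 and 13 of 18 (0.73). Of 11 eligible genes of protein kinase A, its partners and casein kinases 5 were higher and 6 lower, with a median of -0.07 that was 1.27 without the gene-rich cells. Inside the sensitive gene range, over the same genes, it was 0.30. The catalytic subunit Prkacb was detected in 9 of 10 and 11 of 18 cells (1.71), and the regulatory subunits Prkar1a and Prkar2a in 10 of 10 and 13 of 18 (1.48) and in 3 of 10 and 1 of 18 (1.6). Adcy2, an adenylyl cyclase, was detected in 0 of 10 and 5 of 18 cells (-1.92).

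Receptor and channel genes were sparse. Of 11 eligible genes of GABA and glycine receptors 8 were higher, beside 30.7% of all eligible genes. Their median was 0.37, which was -0.11 without sensitive cell 3 and 0.07 without the filter on low genes. Gabra2 and Gabra4 differed by 1.20 and 1.03. Gabra3 was lower, at no more than 0.817 CPM in any sensitive cell and at 10 CPM in 5 of 18 insensitive cells (-2.18), but by only -0.45 without the gene-rich cells. Of 9 eligible glutamate receptor genes 2 were higher, with a median of -0.67 that ran from -1.61 without sensitive cell 8 to -0.21 without insensitive cell 13.

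No eligible voltage-gated channel gene differed by 2. The sodium channel list had 3 of 9 eligible genes higher, with a median of -0.25: Scn8a differed by 1.14, Scn3a by 0.99 and Scn9a by 0.67, while Scn1a differed by -1.10 and the leak channel Nalcn by -0.93. Among potassium channel genes 3 of 7 were higher, with a median of -0.16, and Kcnc1, which supports fast firing, differed by -1.51. Calcium channel genes had a median of 0.09, with the auxiliary subunit Cacnb3 in 0 of 10 and 5 of 18 cells (-1.78). Scn8a and Scn3a were eligible only through the sensitive cells, and Cacnb3 only through the insensitive cells. Without the gene-rich cells the sodium, potassium and calcium medians were 0.77, 1.31 and 1.49. With only the insensitive cells inside the sensitive gene range, over the same genes, these medians were -0.62, 0.71 and 0.50. Single cells also turned their sign: the sodium list stood at 0.03 without sensitive cell 9, the potassium list at 0.15 without insensitive cell 12 and the calcium list at -0.38 without sensitive cell 2.

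Genes of known thermosensitive channels were near the limit of detection in both groups. None of the 19 genes of the TRP list and none of the 17 leak, inward rectifier and HCN channel genes was eligible. Trpv1, Trpm8 and Trpa1 reached 10 CPM in no silent cell, as did Ptger3, a receptor through which prostaglandin E2 raises body temperature. Trpm2, a heat-activated channel of preoptic neurons, was detected in 1 sensitive and 0 insensitive cells, Trpm7 in 2 and 4, Trpv2 in 0 and 3, and the leak channel Kcnk2 in 1 and 3. With this number of cells, 0 of 10 still allows a share of up to 30.8% and 0 of 18 up to 18.5%.

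Genes that respond to temperature or to activity lay on both sides of 0. Of 15 eligible heat shock and cold-inducible genes 5 were higher, with a median of -0.58 that was 0.35 without the gene-rich cells. With only the insensitive cells inside the sensitive gene range, over the same genes, it was -0.48. Hspa4, a cytosolic relative of the chaperone HSP70, was detected in 5 of 10 and 3 of 18 cells (1.96), and Hspa5, the chaperone of the endoplasmic reticulum, in 8 of 10 and 13 of 18 (1.45). The cold-inducible RNA-binding protein genes Rbm3 and Cirbp were lower. Rbm3 was at no more than 6.28 CPM in any sensitive cell and at 10 CPM in 8 of 18 insensitive cells, up to 55.1 CPM (-2.09), and its exons overlap those of Rbm3os. Cirbp was detected in 1 of 10 and 7 of 18 cells (-1.78). Dnajb6, a co-chaperone that suppresses protein aggregation, had no count in any sensitive cell and reached 10 CPM in 7 of 18 insensitive cells, up to 59.6 CPM (-2.54). Of 10 eligible immediate early genes 6 were higher, with a median of 0.10. Fos was detected in 8 of 10 and 16 of 18 cells (0.18), Fosb in 7 and 11 (1.42), Nr4a1 in 6 and 6 (1.18), and Egr1 in 7 and 18 (-1.75). Leaving out sensitive cell 8 gave a median of -0.70 for this list.

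Transcription factors of preoptic identity were mostly undetected: 6 of 35 were eligible, 3 higher and 3 lower. Rora, an orphan nuclear receptor, joined Tcf7l2 among the higher ones at 4 of 10 and 3 of 18 cells (2.08), with 117, 260, 686 and 26.7 CPM in sensitive cells 2, 3, 5 and 6; without cell 5 its difference was 1.41. Zfhx4 was lower, at 1 of 10 and 6 of 18 cells (-1.94). The median of the 6 genes was 0.17, and -0.71 without sensitive cell 7.

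Genes of energy supply, protein turnover, the synapse and transport are given beside the 69.3% of all eligible genes that were lower and the 9.51% lower by 2. Of 14 eligible citric acid cycle genes 10 were lower (71.4%), 5 of them by 2, with a median of -1.22. Those lower by 2 were the isocitrate dehydrogenase genes Idh3a (-2.73), Idh3b (-2.34) and Idh2 (-2.13), the succinyl-CoA ligase gene Suclg1 (-2.42) and the oxoglutarate dehydrogenase gene Ogdh (-2.13). The cytosolic malate dehydrogenase gene Mdh1 differed by 0.85. Without the gene-rich insensitive cells the list's median was -0.07, and without sensitive cell 9 it was -1.84. Of 42 nuclear genes of oxidative phosphorylation 32 were lower (76.2%), 4 of them by 2 (9.52%), with a median of -0.60 that was 0.21 without the gene-rich cells. Besides Ndufb8, those lower by 2 were Ndufb10 (-2.50), Sdha (-2.13) and Sdhd (-2.12), and Uqcrq of complex III differed by 1.29. Of 29 eligible proteasome genes 20 were lower (69%), 6 of them by 2, with a median of -0.92 that became 0.66 without the gene-rich cells. Psmd4, the ubiquitin receptor of the regulatory particle, was higher, in 8 of 10 and 10 of 18 cells (1.65), opposite to Psmd14. List medians were also taken over the same genes with only the insensitive cells inside the sensitive gene range. They were -1.50 for the citric acid cycle, -0.97 for oxidative phosphorylation and -0.22 for the proteasome.

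Of 19 eligible synaptic release genes 15 were lower (78.9%), 4 of them by 2, with a median of -0.80 that was -0.05 without the gene-rich cells and 0.08 with DESeq2 size factors. Along with Nsf, those lower by 2 were its partner Napb, a SNAP protein, in 2 of 10 and 13 of 18 cells (-2.80), Snap91, a clathrin adaptor, in 1 of 10 and 13 of 18 (-2.95), and the synaptotagmin gene Syt5 (-2.17). Syt1 differed by 0.86. Of 19 eligible motor protein genes 12 were lower (63.2%), 5 of them by 2, with a median of -0.80 that was 0.13 without the gene-rich cells and -0.09 with summed counts. Those lower by 2 were the dynactin genes Dctn3 (-3.24) and Dctn1 (-2.62), the kinesin genes Kif3a (-2.28) and Kif1b (-2.20), and the kinesin adaptor gene Fez1 (-2.25), whereas Kif5c differed by 1.73 in 7 of 10 and 10 of 18 cells. In the microtubule and actin list, which holds Tppp3 and Phactr1, 12 of 23 eligible genes were higher and the median was 0.01. Nefl, a neurofilament gene of the pan-neuronal list, was detected in 4 of 10 and 12 of 18 cells (-2.94), and 4 of the 16 pan-neuronal genes were higher, with a median of -0.47 that was 0.21 without the gene-rich cells. Microglia markers had 2 of 11 eligible genes higher and a median of -0.77, which was -1.75 without sensitive cell 6 and 1.02 without the gene-rich cells. Astrocyte markers had 2 of 5 higher and a median of -1.02, which was -0.44 within letters. With only the insensitive cells inside the sensitive gene range, over the same genes, list medians lay on both sides of 0. They were -1.62 for synaptic release, -1.35 for pan-neuronal and -0.70 for motor protein genes. For the microtubule and actin list, microglia markers and astrocyte markers they were 0.59, 0.48 and 1.21.

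**Figure D4:**
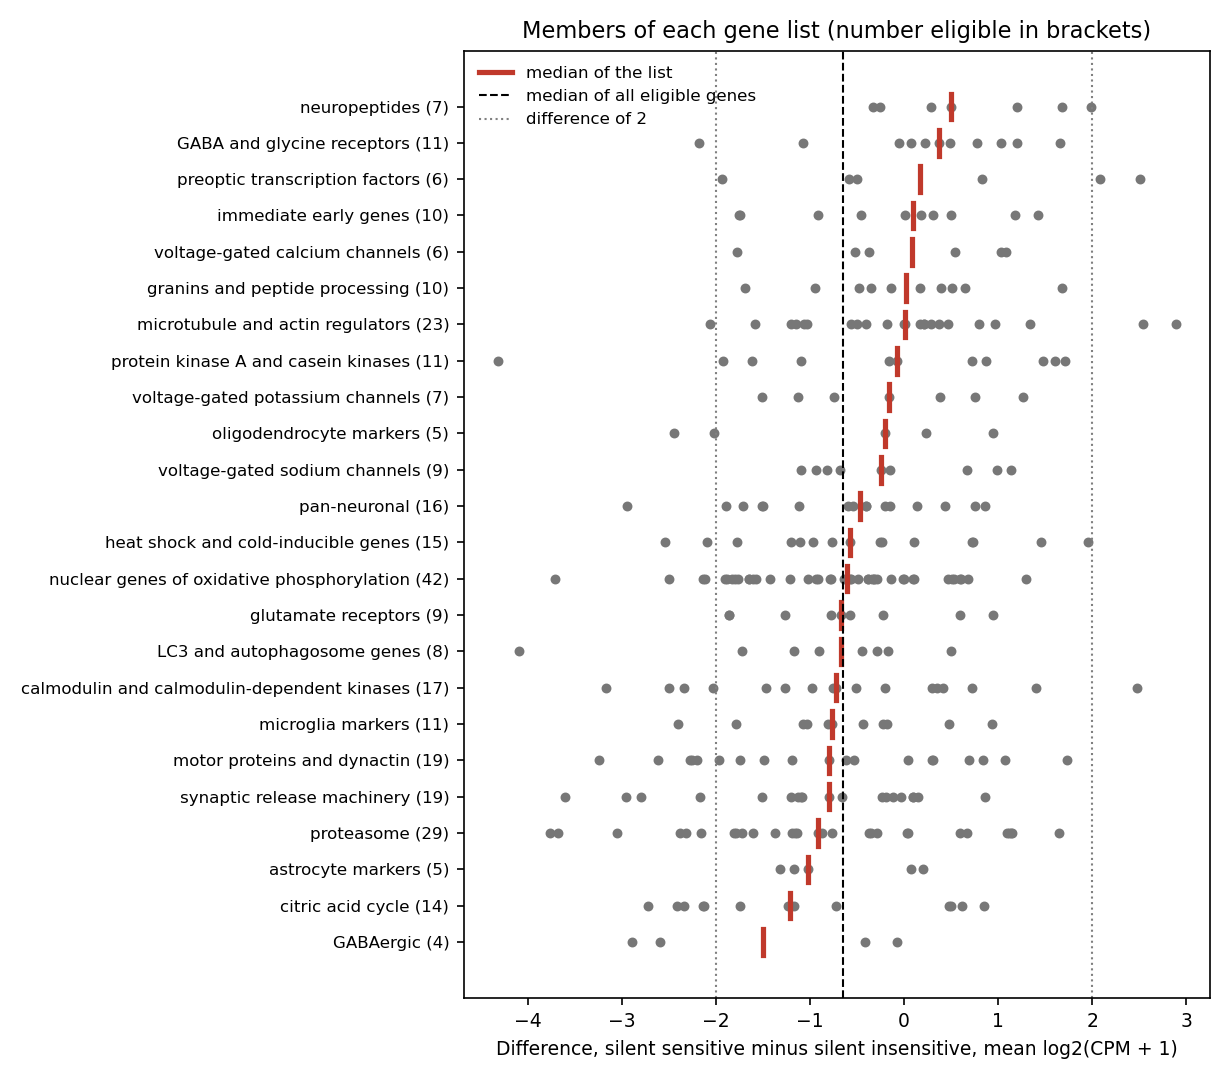
Difference of each eligible member (grey points) of the 24 gene lists with at least 3 eligible genes, silent sensitive minus silent insensitive, in mean log2(CPM + 1); red bars are list medians, the dashed line the median of all eligible genes (-0.65) and dotted lines mark differences of 2 in size. List medians run from -1.50 for the 4 GABAergic genes to 0.50 for the 7 neuropeptide genes, and members of most lists lie on both sides of 0. With the deposited signal the GABAergic median is -0.21, but over a different set of eligible genes.

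Whether the same genes separate warm-sensitive from insensitive cells was asked in cells that are not labelled silent, none of which enter the comparison above. These warm-sensitive and insensitive cells differed in library quality, with median Rn45s shares of 67.7 and 45.4%. Their median numbers of genes at 10 CPM were 1348 and 2429, and of counts outside Rn45s 314892 and 761928. The part of library quality in the values below was not tested. In this comparison the median difference over 4601 eligible genes was -1.36. Of these, 235 genes (5.11%) were higher, 0 (0%) higher by 2 and 1030 (22.4%) lower by 2. Of the named genes, 26 were eligible in this comparison, and Plcg1 was not. The counts of named genes below are out of all 14 in each direction, so they include genes outside the 4601. Of the 14 genes higher in silent sensitive cells, 1 was above 0 in warm-sensitive cells, and 6 of 14 were above the median gene. The 1 above 0 was Plcg1, at 0.76, in 5 of 21 and 2 of 24 cells. Camk1g was lower in warm-sensitive cells by -3.27, in 2 of 21 and 14 of 24 cells, and Tppp3 by -2.63. Of the 14 genes lower in silent sensitive cells, 14 were below 0, as 94.9% of all eligible genes were there. Of these 14, 12 were below the median gene and 6 lower by 2. Psmd14 differed most, by -4.21, in 2 of 21 and 15 of 24 cells, whereas Csnk2b and Tprgl differed by -0.98 and -0.56. Gad1 differed by 1.31 in warm-sensitive cells and by -2.89 in silent sensitive cells. The difference between the 2 comparisons was not tested.

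**Figure D5:**
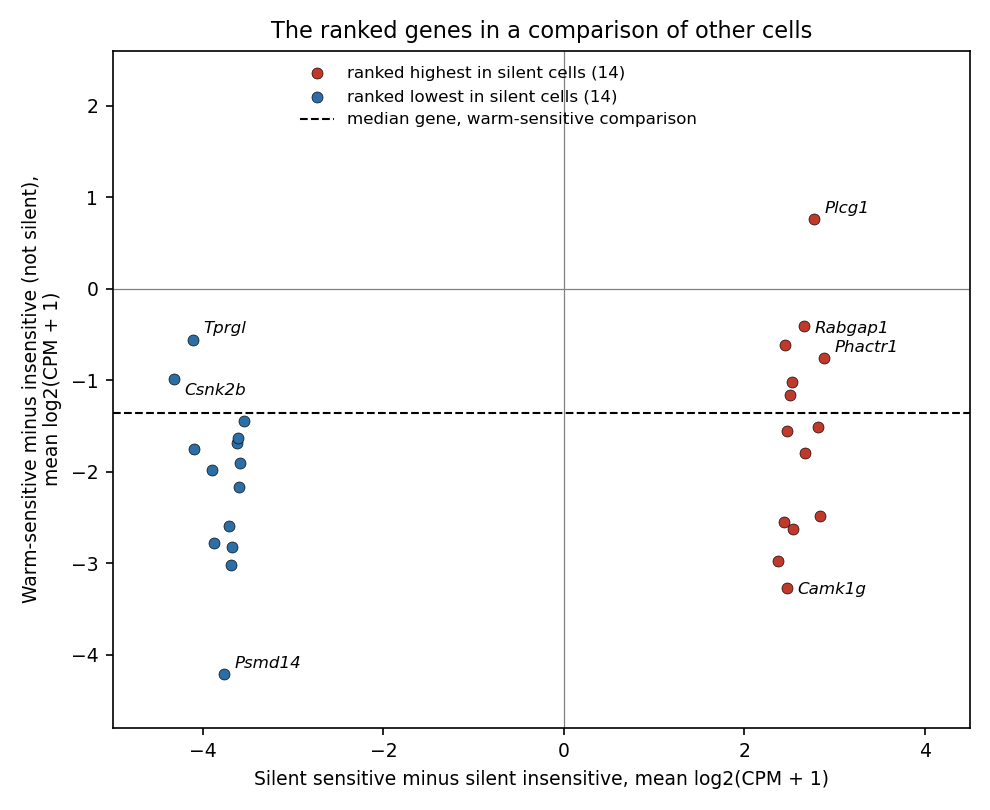
The 14 highest-ranked (red) and 14 lowest-ranked (blue) genes of the silent cells, with their difference in silent cells on the x axis and the difference of warm-sensitive minus insensitive cells not labelled silent on the y axis, both in mean log2(CPM + 1). All 14 blue points and 13 of the 14 red points lie below 0 on the y axis; the dashed line is the median gene there (-1.36).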

How the data were processed

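RNA of 96 single neurons was measured, of which the 28 silent cells are described here. Read counts of each gene in each cell, as whole numbers, and a normalized signal were deposited by the authors. Per the submitters' processing notes FastQC, STAR, edgeR and mm10 were used; the sources used here give no version, annotation, counting step or use of strand. Where exons of genes overlap, reads cannot be assigned to one of them. Each cell's deposited signal equals its counts over its total, times 1000000, divided by an unexplained factor of 0.177 to 2.49.

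Cells were grouped by the temperature class in the labels; 18 cells of the series with no class entered nothing. The table holds 24054 genes, 7772 of them without a count, and no mitochondrially encoded gene. No 2 silent cells held the same values; correlations of log values between them were 0.216 to 0.594. CPM, detection, eligibility and intervals are defined in the text, with a pseudocount of 1 CPM. To be named, an eligible gene needed the same sign in shares and in log2 means, and no single cell's removal could take its log2 difference below 2/3 of its value. The 14 with the largest differences were taken in each direction, passing over predicted genes, ribosomal protein genes and Rn45s. Members of 33 lists (599 genes) could be named besides. A few of them are not reported here. The comparison, its members and the lists were chosen with earlier results of these data known.

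Alternatives were other library sizes (no Rn45s, TMM, DESeq2 size factors, the deposited signal), pseudocounts of 0.1 and 10 CPM, detection at 5 counts, no filter, thinning, no cells over 75% Rn45s, title letters, summed counts, and each cell left out; the 2 alternatives by gene number were added after seeing the data. The measures were tested on simulated data, in which each gene had the same rate of zero counts in both groups. A difference between groups in genes per cell was not simulated, so its effect on the measures was not tested. Gene positions follow GENCODE M21 (mm10). TMM came from edgeR 4.0.16 and size factors from DESeq2 1.42.0, under R 4.3.3. All else used Python 3.11.15 with scipy 1.17.1, pandas 2.3.3, numpy 2.4.6 and, for figures, matplotlib 3.10.9.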

Additional observations from a re-analysis of the deposited data

Results flagged for a closer look

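Of 36 measures examined over the 10 sensitive cells (the 28 named genes, the transmitter genes that had counts, and cell quality), 9 held 1 cell that stood apart from the others by Dixon's criterion. Chance gives this in about 1 of 20 groups of normally distributed values. That rate does not apply here, because the 28 named genes were chosen by these same values, and the 9 cannot be set against it. In each case the cell was the highest. In sensitive cell 6 these were Tprgl, at 8.24 on the log2(CPM + 1) scale, Psmb2 at 7.94 and Lpin2 at 5.33. In sensitive cell 7 they were Aktip at 4.91, Ddx39b at 3.93 and Map1lc3b at 3.19. Sensitive cell 1 held Apbb1 at 10.47 and Slc17a8, the vesicular glutamate transporter VGLUT3, at 2.83. Sensitive cell 4 held Cope at 4.23. Of the 9, 8 are genes named as lower in sensitive cells, where most sensitive values lie near 0.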

How the results depend on the processing

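The counts of genes past a difference of 2, and the median difference, depended on the library size, the pseudocount and which insensitive cells entered. As reported, 49 genes were higher, 329 were lower and the median was -0.65. With Rn45s left out of the total, 118 were higher and 505 lower. With TMM they were 80 and 203 (median -0.33), and with the deposited signal 90 and 221 (median -0.33). With DESeq2 size factors they were 195 and 89 and the median reversed to 0.24, but 4 of the 28 cells had a factor of exactly 1 in a range of 0.519 to 21.3, so this scaling is doubtful. Relative to the median gene, which makes the median 0, they were 194 and 82. A pseudocount of 0.1 CPM gave 186 and 823, and one of 10 CPM gave 0 and 27 (median -0.37). Without a filter the median was -0.21, with 50 and 331. Thinning gave 109 and 998 (median -1.04), leaving out cells over 75% Rn45s 68 and 906 (median -1.18), title letters 99 and 385, and summed counts 225 and 684. Of the alternatives chosen after seeing the data, leaving out the gene-rich insensitive cells gave 308 and 96 with a median reversed to 0.51, and keeping only those within the sensitive range gave 226 and 472 (median -0.11). The share of higher genes among those past 2 was 13% as reported, 28.3% with TMM, 28.9% with the deposited signal, 68.7% with DESeq2 size factors, 70.3% relative to the median gene, 24.8% with summed counts, and 76.2% and 32.4% in the alternatives by gene number. The cause was not tested.

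Leaving out 1 cell at a time gave 40 to 78 higher genes, 240 to 433 lower genes and medians of -0.81 to -0.47. The higher count moved by over 1.5 times without sensitive cell 2 (76), 5 (74) or 9 (78). The 28 named genes kept their sign in all 15 other settings, but were chosen for keeping it when a cell is left out; with a pseudocount of 10 CPM 0 of 14 higher and 12 of 14 lower genes stayed past 2, with summed counts 10 and 9 (Tppp3 0.77, Id2 1.15, Fis1 -0.87), without cells over 75% Rn45s 8 and 14, without the gene-rich cells 14 and 13, and with those in the sensitive range 11 and 13. Detection at 5 counts moved no count by over 1.5 times. No paired analysis was possible because the cell numbers follow accession order and tie no cells together. With 10 and 18 cells, 1 library each and no animal named, 0 cells still allow a share of up to 30.8% and 18.5%.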

Other observations

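Ptgds, which encodes a prostaglandin D synthase, was at 10 CPM or more in all 28 silent cells. It ran from 20.7 to 40810 CPM in sensitive cells, with sensitive cell 7 above every other silent cell, and from 19.3 to 3806 CPM in insensitive cells. The difference was -0.32, while summed over cells the sensitive group held 5168 CPM against 625 CPM; without cell 7 its sum was 539 CPM.

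Of the genes for other transmitters, Th and Ddc, enzymes of catecholamine synthesis, were detected in 0 and 1 sensitive and in 3 and 3 insensitive cells. Slc18a2, the vesicular monoamine transporter, was detected in 1 and 4. Chat, Slc18a3, Tph2 and Hdc, which mark cholinergic, serotonergic and histaminergic neurons, reached 10 CPM in no silent cell. The receptor genes Nr3c1 and Prlr, of glucocorticoids and prolactin, were detected in 0 and 1 sensitive and in 4 and 5 insensitive cells, and the leptin receptor gene Lepr in 1 and 1.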
